A study of Homo sapiens with 2 samples.

Results

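The transcript clusters of human chromosome 13 were compared between a parental gastric carcinoma cell line and its T-DM1-resistant counterpart. A transcript cluster is an annotated transcript locus that the array summarises into 1 value, and its members here were all rows of the deposited table whose identifier carries the code of chromosome 13. They numbered 1715 of 67477 transcript cluster rows and of 70523 rows in all. The line, NCI-N87, is a widely used gastric tumour line in which ERBB2, which encodes the HER2 receptor, is amplified. T-DM1 (trastuzumab emtansine, written TDM-1 in the labels) is an antibody against HER2 that carries a microtubule poison into the cell. The parental group was the untreated NCI-N87 line, with 1 array, and the resistant group was a TDM-1 resistant NCI-N87 line, with 1 array. The labels give both the same culture conditions. They give no dose, length of selection or passage for the resistant line, and do not say whether it was 1 clone or a mixed population or whether the drug was present at harvest. Biotin-labelled total RNA was read on 1-colour Affymetrix Human Transcriptome Arrays.

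Chromosome 13 is acrocentric, so that its protein-coding genes lie on the long arm. It carries RB1, the retinoblastoma gene that restrains entry into S phase, and KLF5 and CDX2, which encode transcription factors of gut epithelium. In gut tumours whole arms of chromosomes are often gained or lost, and the RNA level of a gene tends to follow its number of copies. That is background, and no DNA measurement was analysed here.

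Values are the authors' deposited values, with an unstated log base that was taken as log2. A difference is always the resistant minus the parental value, so 1 log2 unit below 0 stands for a level 2-fold lower on the resistant array. With 1 array per group there is no replicate error and no test, and the small number of arrays sets the precision. What follows therefore describes these 2 arrays. A row was counted as measured well enough to compare when the higher of its 2 values reached a floor of 5.79, the median of the higher values over 22411 genes. The floor is a working line, not a limit of detection. A row at or above it was called lower at a difference of -1 or below and higher at 1 or above. In RNA from bulk cultures, fewer cells of a kind and less RNA per cell cannot be told apart.

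Epithelial markers were far above the floor on both arrays. EPCAM, the epithelial adhesion molecule, stood at 13.2 in the parental and 13.7 in the resistant line. KRT8 stood at 17.3 and 17.0, and CDH1, the gene of E-cadherin, at 15.1 and 13.97. The immune marker PTPRC, at 4.06 on both, and the mesenchymal marker VIM, at 4.54 and 4.82, lay under the floor. The column medians were 4.76 and 4.76.

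Of the 1715 rows, 583 were annotated to 1 gene symbol and 21 to several, and 1111 were not listed in the platform annotation. Those with several symbols were not assigned to a gene, and those not listed are known by their identifier. The single symbols came to 572 genes, of which 570 could be ordered along the chromosome and 227 of those reached the floor.

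The promoters of the members that mark the ends of the range are shown first, from RefSeq on GRCh38.p14, each running from 250 bases before to 50 after the annotated start in the direction of transcription. DNAJC15 and SCEL had the lowest differences of all named genes, and FREM2 had the highest. SKA3 and BORA, genes of the mitotic spindle, are shown for a motif that their windows hold. Capitals mark TTTGAA on either strand (so TTTGAA or TTCAAA as printed), the letters of the cell cycle genes homology region, an element known from promoters of genes used in mitosis. The windows are chr13:43023336-43023635 on the plus strand for DNAJC15, chr13:77535456-77535755 (plus) for SCEL, chr13:38686827-38687126 (plus) for FREM2, chr13:21176503-21176802 (minus) for SKA3 and chr13:72727673-72727972 (plus) for BORA.
DNAJC15: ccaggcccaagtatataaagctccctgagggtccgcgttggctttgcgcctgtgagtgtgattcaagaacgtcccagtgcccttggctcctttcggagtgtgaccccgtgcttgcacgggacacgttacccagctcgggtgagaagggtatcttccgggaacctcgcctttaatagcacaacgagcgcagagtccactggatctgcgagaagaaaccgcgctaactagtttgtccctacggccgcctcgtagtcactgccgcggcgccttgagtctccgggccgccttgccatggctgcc
SCEL: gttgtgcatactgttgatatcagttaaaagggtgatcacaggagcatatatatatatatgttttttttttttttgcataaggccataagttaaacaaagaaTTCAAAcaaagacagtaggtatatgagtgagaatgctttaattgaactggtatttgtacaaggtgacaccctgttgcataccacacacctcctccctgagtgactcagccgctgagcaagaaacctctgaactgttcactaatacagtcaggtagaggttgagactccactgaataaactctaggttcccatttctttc
FREM2: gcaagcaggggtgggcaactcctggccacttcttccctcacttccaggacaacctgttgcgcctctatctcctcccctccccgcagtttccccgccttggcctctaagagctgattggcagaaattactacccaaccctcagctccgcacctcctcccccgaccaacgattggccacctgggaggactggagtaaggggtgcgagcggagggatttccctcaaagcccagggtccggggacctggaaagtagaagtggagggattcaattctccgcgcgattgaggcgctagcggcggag
SKA3: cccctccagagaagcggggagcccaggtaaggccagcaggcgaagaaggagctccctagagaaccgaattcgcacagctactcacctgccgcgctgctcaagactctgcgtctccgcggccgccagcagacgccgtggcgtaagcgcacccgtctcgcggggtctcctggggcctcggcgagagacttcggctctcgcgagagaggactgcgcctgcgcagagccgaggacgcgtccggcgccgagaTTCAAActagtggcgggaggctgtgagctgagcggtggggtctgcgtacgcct
BORA: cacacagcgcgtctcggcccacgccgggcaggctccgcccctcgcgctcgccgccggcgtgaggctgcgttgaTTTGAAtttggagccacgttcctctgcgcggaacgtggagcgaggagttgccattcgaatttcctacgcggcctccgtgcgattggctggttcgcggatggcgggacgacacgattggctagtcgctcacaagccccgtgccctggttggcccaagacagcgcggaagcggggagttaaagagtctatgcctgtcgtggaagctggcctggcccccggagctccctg

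The letters occurred in the windows of SCEL, SKA3 and BORA. Also examined but not printed were the windows of KLF12, of CKAP2, another spindle gene, and of DIAPH3, and none of them held the letters. The window of BORA shares 207 bases with that of MZT1, which is transcribed the other way, so the same letters count for both genes. Over all 27305 RefSeq promoters 15.4% held TTTGAA on either strand, and of 150 chromosome 13 protein-coding genes with a promoter 20 did (13.3%). The median difference was -0.81 for those 20 genes and -1.11 for the other 130. For CCAAT the order was the opposite, with -1.20 over 49 genes that held it and -0.88 over 101 that did not. The other motifs, also searched on both strands, were CCAAT, found in 32.7% of the chromosome 13 windows and 35.7% of all, TATAAA, in 6% and 12%, and GGGCGG, in 64.7% and 44.6%. The 27305 promoters were not limited to protein-coding genes or to genes at the floor. These shares therefore compare unlike sets and do not describe the chromosome alone. The 5 windows also differ in CG dinucleotides, of which SCEL has 1, FREM2 15, DNAJC15 24, SKA3 34 and BORA 35. These matches describe letters in a window and not sites of binding.

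Chromosome 13 RNA was lower as a whole on the resistant array. Over the 412 rows at or above the floor the median difference was -0.59, with quartiles of -1.29 and -0.10. Of these rows 147 were lower and 7 higher by the 2-fold rule, while 258 were neither. A difference of 0 or more was found in 74 rows. Across all transcript cluster rows 9.90% were lower, 7.83% higher and 47.9% at 0 or more. Off chromosome 13 these shares were 9.42%, 7.94% and 48.4%. Because the chromosome was chosen for this contrast, the gap between those shares is a description. For the other 1303 rows neither array reached the floor, and their median difference was 0.

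The protein-coding genes showed the shift most clearly. Of 277, 164 reached the floor, with a median difference of -1.09 and quartiles of -1.55 and -0.47, a median level 2.13-fold lower on the resistant array. By the 2-fold rule 88 were lower and 3 were higher, against 9.40% lower and 10.5% higher among 9829 protein-coding genes of all chromosomes. Another 61 had a difference between -1 and 0, and 15 were at 0 or more, against 52.4% of all. Where both arrays reached the floor (148 genes) the median was -1.10.

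**Figure D1:**
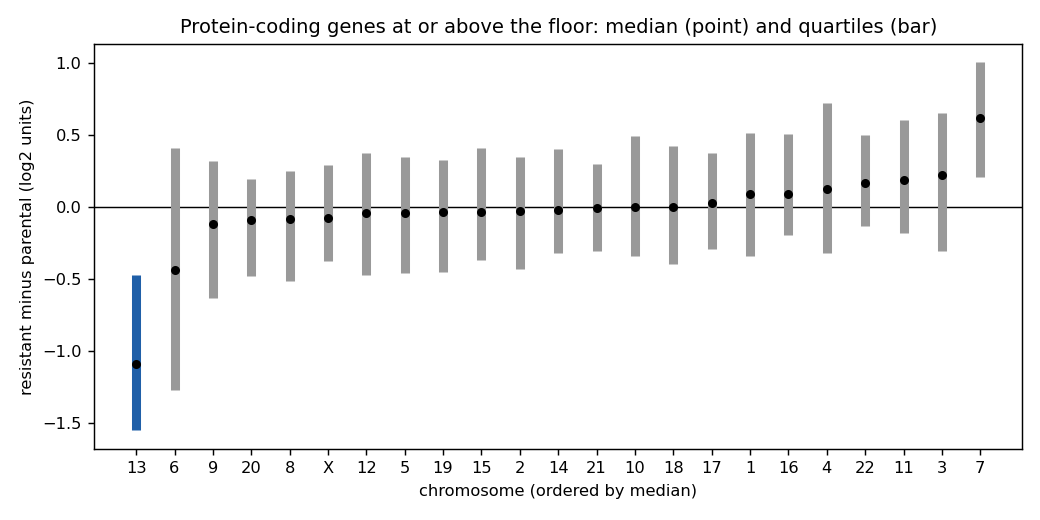
Median (point) and quartiles (bar) of the resistant minus parental difference in log2 units, for the protein-coding genes that reached the floor. Chromosomes are in order of their median, and those with too few such genes are not shown. Chromosome 13, in blue, is at -1.09, the lowest of 23, followed by chromosome 6 at -0.44 with a wider bar, while chromosome 7 is highest at 0.62.

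The plot of chromosome medians sets this against the rest of the genome. Chromosome 13 had the lowest median of the 23 chromosomes with enough protein-coding genes at the floor to rank. Chromosome 6 followed at -0.44 and chromosome 9 at -0.11. Protein-coding genes off chromosome 13 had a median of 0.04. The interquartile range on chromosome 13 was 1.08 against 0.85 off it, so the genes differed by unequal amounts. It was the second widest after chromosome 6, at 1.68. Within 0.5 of its own median lay 46.3% of the chromosome 13 genes, against 55.8% of the genes elsewhere.

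The difference was larger in genes with a stronger signal. Probes differ between rows, so the bins that follow sort rows by signal and do not rank genes by amount of RNA. Where the mean of both arrays was under 7 the median difference was -0.56 over 41 genes. It was -0.97 between 7 and 8, -1.20 between 8 and 9 and -1.14 between 9 and 10. It reached -1.56 over the 24 genes between 10 and 12 and -1.61 over the 9 genes at 12 or more. Genes of other chromosomes in the same bins had medians between -0.06 and 0.08. The cause was not tested.

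**Figure D2:**
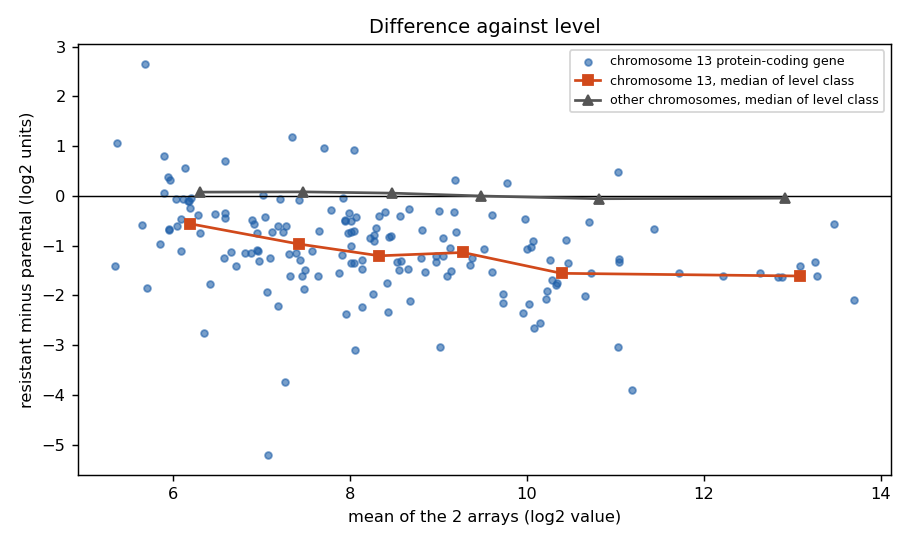
Resistant minus parental difference in log2 units against the mean level on both arrays for the protein-coding genes of chromosome 13 (points), with the medians by level bin on chromosome 13 and on the other chromosomes (lines). The chromosome 13 medians lie between -0.56 in the lowest bin and -1.61 in the highest, and those of other chromosomes stay between -0.06 and 0.08.

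Sorted by the parental value, 12 genes stood at 12 or more and 11 of them were lower, with differences from -3.90 to -0.56 and quartiles of -1.74 and -1.51. A choice by the parental value favours negative differences, and genes of other chromosomes chosen the same way had a median of -0.23. KLF5, a transcription factor of proliferating gut epithelium, stood at 13.7 in the parental and 12.03 in the resistant line, a difference of -1.62. SLC7A1, a transporter of cationic amino acids, stood at 13.7 and 12.1, also -1.62 apart. ELF1, an ETS family transcription factor, stood at 14.1 and 12.5, a difference of -1.61. ITM2B, an integral membrane protein gene, had 13.02 and 11.4, again -1.61. These 4 genes stand next to each other when the 12 are sorted by difference, so their likeness follows from the choice. Of the others, SCEL (-3.90), UBL3 (-3.04) and TM9SF2 (-2.09) were further below 0. HSPH1, which encodes a large heat shock chaperone, was nearer to 0, at 13.8 and 13.2, a difference of -0.56.

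The shift ran the whole length of the long arm. The 164 protein-coding genes were cut into 10 blocks of 16 or 17 along the chromosome, and every block median was below -0.5. With 20 blocks all medians were still below 0, the highest being -0.35 from GRTP1 to CHAMP1 and -0.47 from SAP18 to CPAP. With genes of all types in 10 blocks the highest were -0.32 and -0.42. Among the 10 protein-coding blocks the lowest median, -1.55, belonged to the block from CPAP to KATNAL1, near the centromere. There 13 of 17 genes were lower. The first block, from MPHOSPH8 to PARP4, had -0.74 and the third, from HMGB1 to COG6, -0.84. The 6 blocks that followed had medians between -1.42 and -0.92. Genes on the plus strand (70) had a median of -1.13 and those on the minus strand (80) -1.06.

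**Figure D3:**
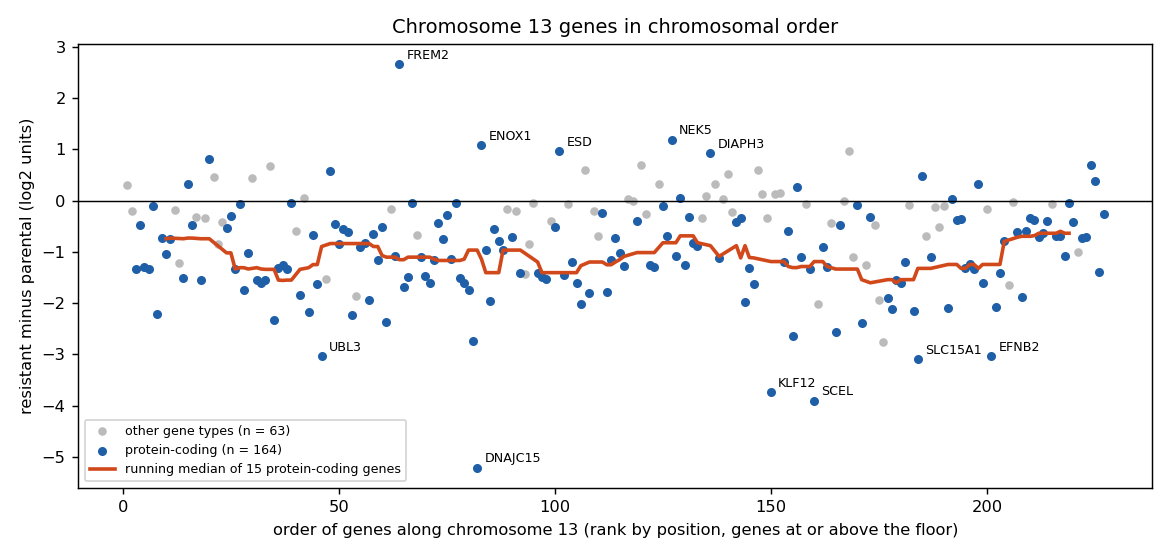
Resistant minus parental difference in log2 units for each gene at or above the floor, in the order of genes along chromosome 13 (protein-coding in blue, other types in grey), with a running median over 15 protein-coding genes (line). The running median stays below 0 along the chromosome while single genes range from -5.21 (DNAJC15) to 2.66 (FREM2).

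Of the 10 protein-coding blocks, the one at the end of the long arm had the smallest median shift. The last 16 protein-coding genes, from ING1 to CHAMP1, had a median of -0.53, 1.45-fold lower, while the other 148 had -1.16, or 2.24-fold lower. Their spread was also the narrowest of the blocks, with an interquartile range of 0.39. The median parental value was 8.46 in the distal genes and 8.68 in the others. At parental values from 8 to 12 the medians were -0.69 over 10 distal genes and -1.33 over 84 others. The block was singled out after its values were seen, and no test was made. A shift this small was not particular to the end of the arm. With 20 blocks, SAP18 to CPAP had -0.47 and WDFY2 to HNRNPA1L2 -0.51, beside -0.66 from ING1 to LAMP1 and -0.35 from GRTP1 to CHAMP1. With genes of all types in 10 blocks the last had -0.60, while blocks with -0.48, -0.42 and -0.32 had smaller shifts.

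Only 2 of the distal genes were lower by the 2-fold rule. LAMP1, a major glycoprotein of the lysosomal membrane, stood at 10.5 in the parental and 9.47 in the resistant line, a difference of -1.07. CDC16, a subunit of the anaphase-promoting complex, stood at 10.1 and 8.67, a difference of -1.39. CUL4A, the scaffold of a ubiquitin ligase, had 9.16 and 8.48, a difference of -0.68 that lay near the middle of the distal group. TFDP1, the partner of E2F factors, was at 9.55 and 8.84, a difference of -0.71. GAS6, a ligand of the TAM receptor kinases, and RASA3, a GTPase-activating protein for Ras, were the distal genes above 0.

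Neighbouring genes did not resemble each other more than distant ones. The median absolute difference between adjacent protein-coding genes was 0.86 over 163 pairs, and over all 13366 pairs it was 0.82. The correlation of a gene's difference with that of the next gene was r = -0.01 over the same 163 pairs, which come from the same 2 arrays. Some very unlike genes were neighbours. DNAJC15, at -5.21, lay between EPSTI1, at -2.75, and ENOX1, at 1.08. FREM2, at 2.66, lay between UFM1, at -1.07, and PROSER1, at -1.68. UBL3, at -3.04, was followed by KATNAL1, at 0.57. DOCK9, at 0.49, lay between SLC15A1, at -3.09, and UBAC2, at -1.10.

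The genes with the lowest differences went well past the chromosome's median, and 20 protein-coding genes were at -2 or below. DNAJC15, a co-chaperone of the inner mitochondrial membrane, stood at 9.68 in the parental line and 4.47, under the floor, in the resistant line. Measured against the floor, its level was at least 14.8-fold lower. SCEL, which encodes sciellin, a precursor of the cornified envelope, stood at 13.1 and 9.24, a difference of -3.90. It remained above the floor on both arrays, so its difference is measured on both sides. KLF12, a transcriptional repressor of the Krüppel-like family, stood at 9.14 in the parental and 5.39, under the floor, in the resistant line, a level at least 10.2-fold lower. EPSTI1, an interferon-induced gene, had 7.73 and 4.98, at least 3.83-fold lower.

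SLC15A1, the intestinal transporter of small peptides, stood at 9.61 in the parental and 6.52 in the resistant line, a difference of -3.09. EFNB2, which encodes the membrane ligand ephrin-B2, stood at 10.5 and 7.496, a difference of -3.04. GJB2, a gap junction connexin, stood at 8.30 and 6.09, a difference of -2.21. All 3 were above the floor on both arrays.

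UBL3, a ubiquitin-like protein anchored in membranes, stood at 12.6 and 9.52, a difference of -3.04. UCHL3, a hydrolase that frees ubiquitin from its adducts, stood at 11.4 and 8.75, a difference of -2.65. NDFIP2, an adaptor of NEDD4 family ubiquitin ligases, stood at 11.4 and 8.87, a difference of -2.56. DNAJC3-DT, a non-coding transcript that starts beside the chaperone gene DNAJC3, completed the 10 lowest at 7.78 and 5.02, at least 3.98-fold lower.

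The 15 protein-coding genes at 0 or more escaped the shift in sign. They lay from SKA3 near the centromere to RASA3 near the end of the arm. Of these, FREM2, ENOX1, FGF9 and RASA3 had a parental value under the floor, so they passed it through the resistant array and had to be above 0. The median parental value of the 15 was 6.25 against 8.73 in the other 149 genes, which is partly set by the choice, since the parental value is a term of the difference. Of 71 genes with a parental value of 9 or more, 3 were at 0 or more. On other chromosomes the counts at 0 or more were 573 of 1247 genes with parental values from 9 to 10, 631 of 1568 from 10 to 12 and 278 of 757 at 12 or more. A choice by the parental value favours negative differences on any chromosome.

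The 3 genes higher by the 2-fold rule were FREM2, NEK5 and ENOX1. FREM2, an extracellular matrix protein of the basement membrane of epithelia, stood at 4.36 on the parental array, under the floor, and at 7.02 on the resistant array, at least 2.34-fold higher. NEK5, a kinase of the NIMA family, stood at 6.75 and 7.93, a difference of 1.18. ENOX1, an oxidase of the cell surface, stood at 4.84 and 5.91, at least 1.09-fold higher. NEK5 alone of the 3 was above the floor on both arrays.

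DOCK9, an activator of the small GTPase CDC42, stood at 10.8 in the parental and 11.3 in the resistant line, a difference of 0.49. LMO7, an actin-binding protein of cell junctions, stood at 9.64 and 9.90, a difference of 0.26. SKA3, a subunit of the complex that couples kinetochores to microtubules, stood at 9.03 and 9.36, a difference of 0.33. These were the 3 escaping genes with a parental value of 8 or more. DIAPH3, a formin that builds actin filaments, followed at 7.58 and 8.51, a difference of 0.93.

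Among the other genes at 0 or more, ESD, an esterase of formaldehyde detoxification, stood at 7.23 and 8.20, a difference of 0.97. FGF9, a fibroblast growth factor, stood at 5.50 and 6.31, a difference of 0.81. GAS6 stood at 6.25 and 6.94, a difference of 0.70. The rest differed by less, with KATNAL1, a microtubule-severing ATPase, at 0.57, RASA3 at 0.39, TEX30 at 0.33, THSD1 at 0.05 and CLYBL, a mitochondrial lyase, at 0.03.

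The genes were then grouped by role, and the plot of differences by role shows each group. Of all the chromosome's protein-coding genes that reached the floor 53.7% were lower, and the list counts stand beside that share. In RNA processing and translation 11 of the 13 genes that reached the floor were lower and none was at 0 or more, with a median of -1.34. PAN3, a subunit of a deadenylase, stood at 11.1 in the parental and 8.94 in the resistant line. MBNL2, a splicing regulator, stood at 13.4 and 11.9. TPT1, the translationally controlled tumour protein, stood at 13.8 and 12.4, and RBM26, an RNA-binding protein, at 10.9 and 9.62. The differences of these 4 lay between -2.18 and -1.29.

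Genes of mitochondria, of membrane traffic and of ubiquitin and folding had medians between -1.37 and -1.11, beside -1.09 for all the chromosome's protein-coding genes. Of 10 mitochondrial genes 6 were lower, with a median of -1.37. SUCLA2, a subunit of succinyl-CoA synthetase, stood at 9.39 and 7.93, and PCCA, of propionyl-CoA carboxylase, at 9.20 and 7.88. MIPEP, a peptidase that trims imported proteins, differed less, at 9.16 and 8.86. Of 11 genes of lysosomes, membrane traffic and transport 7 were lower, with a median of -1.25. TM9SF2, a protein of endosomal and Golgi membranes, stood at 14.7 and 12.6, a difference of -2.09.

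SLC46A3, a lysosomal transporter known to carry the catabolite of T-DM1 into the cytosol, was under the floor on both arrays, at 5.48 and 4.52. ABCC4, an efflux pump, stood at 8.55 and 8.24, a difference of -0.32. In ubiquitin, proteasome and protein folding 11 of 19 genes were lower and 1 was at 0 or more, with a median of -1.11. The list is broad, and it counts CHAMP1 and LMO7, the latter being the 1 at 0 or more. USP12, a deubiquitinase, stood at 11.5 and 9.95, while POMP, a proteasome assembly factor, stood at 11.8 and 11.1, a difference of -0.67.

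**Figure D4:**
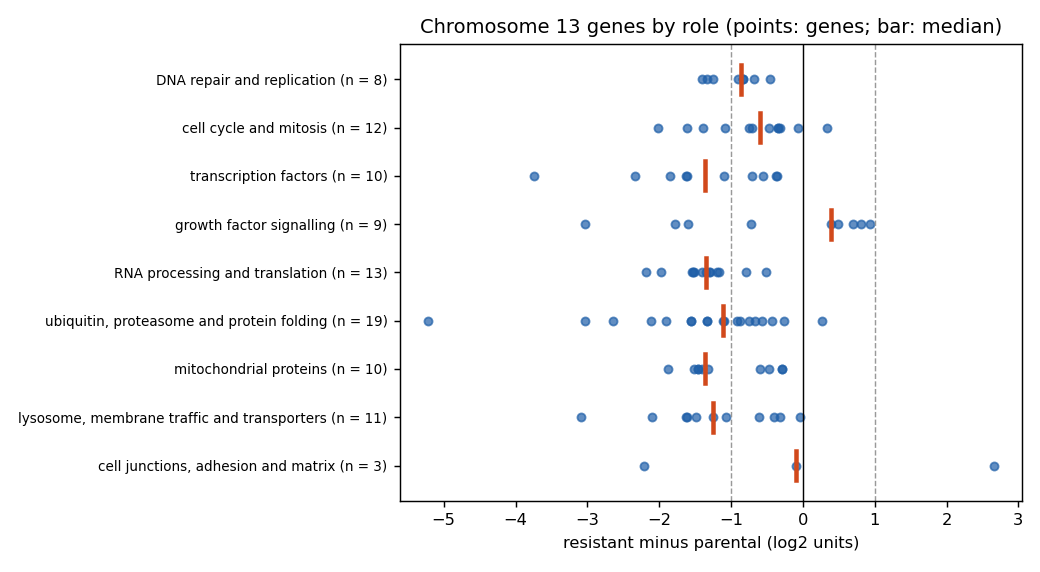
Resistant minus parental difference in log2 units for the members at or above the floor of each role list on chromosome 13 (points) with the median of the list (bar). RNA processing has its median at -1.34 with every member below 0. Growth factor signalling is at 0.39, and at -0.11 over the 6 members that reached the floor on both arrays.

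Transcription factors had a median of -1.36 over the 10 at or above the floor, 6 of them lower and none at 0 or more. Over the 8 that reached it on both arrays the median was -0.91. GTF3A, the factor that starts transcription of 5S ribosomal RNA, stood at 9.60 in the parental and 7.26 in the resistant line, a difference of -2.34. CDX2, the intestinal homeobox factor, stood at 6.63 and 4.78, under the floor, at least 1.79-fold lower. FOXO1, a forkhead factor downstream of AKT, stood at 7.51 and 6.41, and GTF2F2, a subunit of general factor TFIIF, at 8.40 and 7.69.

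Of 12 cell cycle genes at or above the floor 4 were lower and 1 was at 0 or more, with a median of -0.59. RB1 stood at 11.7 in the parental and 9.65 in the resistant line, a difference of -2.01. CDK8, a kinase of the Mediator complex, stood at 9.91 and 8.29, a difference of -1.62. Genes of the spindle and centrosome were chosen after their values were seen. Their place beside the chromosome's median of -1.09 is therefore no result about such genes. CKAP2, which stabilises spindle microtubules, stood at 9.34 and 9.02, a difference of -0.32. BORA, an activator of Aurora A, stood at 8.16 and 7.82, a difference of -0.34, and CPAP, a centriole protein, stood at 7.24 and 7.18. MZT1 differed by -0.42 and TUBGCP3 by -0.64, and SKA3, described above, by 0.33. NEK3 stood at the chromosome's median, at -1.09. PIBF1, of the centriolar satellites, at -1.31, and CDC16, at -1.39, lay below it.

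DNA repair and replication held 8 genes at or above the floor, 3 of them lower, with a median of -0.87 and none at 0 or more. RFC3, a subunit of the clamp loader, stood at 9.47 and 8.64, a difference of -0.84. PDS5B, a regulator of cohesin, stood at 10.5 and 9.62, a difference of -0.90. PARP4, the vault poly(ADP-ribose) polymerase, stood at 13.9 and 12.6. LIG4, the ligase of non-homologous end joining, stood at 7.42 and 6.01, a difference of -1.41.

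Growth factor signalling held 9 genes at or above the floor, of which 5 were at 0 or more and 3 were lower. Their median was 0.39, but its sign rests on the floor. FGF9 and RASA3 reached it on the resistant array alone and so had to be above 0, and over the 6 genes that reached it on both arrays the median was -0.11. GAS6, DIAPH3 and DOCK9, described above, were the others at 0 or more. DIAPH3, a formin, and DOCK9, an activator of CDC42, belong to this list only in a broad sense. RAP2A, a Ras-related GTPase, went the other way, at 8.44 in the parental and 6.84 in the resistant line. IRS2, an adaptor of insulin signalling, was under the floor on both arrays, at 3.40 and 3.26. Of 17 junction and matrix genes 14 were under the floor, with the collagen gene COL4A1 at 4.04 and 4.12. All 12 genes of immune cells and coagulation were under the floor, the highest value being 5.73, for LPAR6.

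Most classes of RNA other than protein-coding transcripts had medians nearer to 0. The 15 long non-coding RNA genes at or above the floor had a median of -0.52, and 6 were lower. Off chromosome 13 such genes had a median of -0.14, with 12.01% lower. The 15 were low in signal, with a median parental value of 6.38 against 8.65 for the protein-coding genes. Chromosome 13 protein-coding genes with a mean of both arrays under 7 had a median difference of -0.56. Those with a parental value under 7 (29 genes) had -0.24. Whether level accounts for the gap between types was not tested. Some non-coding RNAs resembled the gene beside them. N4BP2L2-IT2, transcribed within N4BP2L2, differed by -1.86 and its host by -2.23. SNORA31, a small nucleolar RNA within TPT1, stood at 12.1 and 10.7, a difference of -1.43 beside -1.41 for TPT1. Others lay further from their gene. TPT1-AS1 differed by -0.84 beside -1.41 for TPT1, and DNAJC3-DT by -2.76 beside -1.90 for DNAJC3. SUCLA2-AS1 differed by -0.06 beside -1.46 for SUCLA2. Whether probes within a host also read the host's RNA was not tested.

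Copies of small RNA families (U, Y, 7SK and 5S RNA) lay near 0. Of 93 such genes 34 reached the floor, with a median of -0.18, and 2 were lower. Copies on other chromosomes had a median of -0.07. The 11 other pseudogenes had a median of 0.03, with 1 lower and 6 at 0 or more, and 385 off chromosome 13 had -0.04. Such copies are near identical to genes elsewhere, so which locus their values come from is uncertain.

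**Figure D5:**
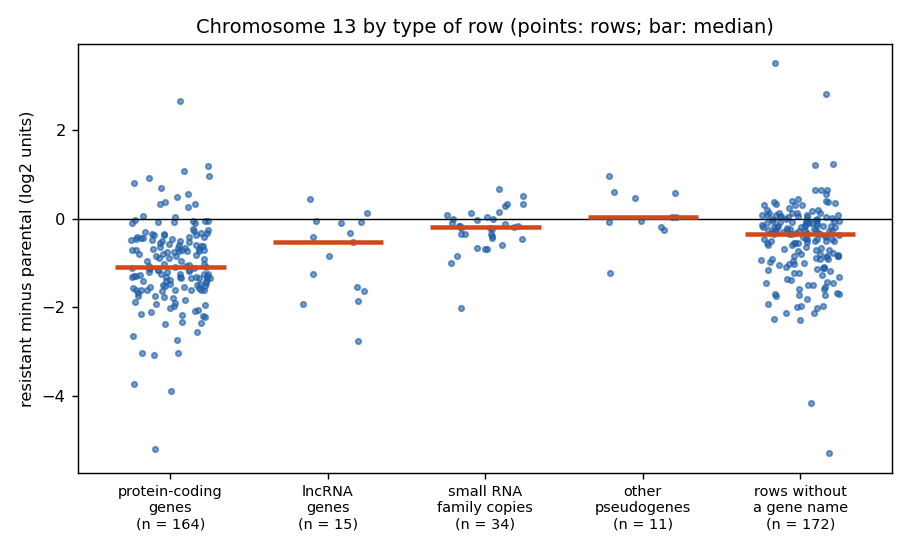
Resistant minus parental difference in log2 units for chromosome 13 rows at or above the floor (points) by type, with the median of each type (bar). The medians are -1.09 for protein-coding genes, -0.52 for lncRNA genes, -0.18 for small RNA copies, 0.03 for other pseudogenes and -0.34 for rows without a gene name. The types were not matched for level, the median parental value being 8.65 for protein-coding and 6.38 for lncRNA genes.

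Pseudogenes were set beside the genes they are named after. For 8 pseudogenes with a separate row for that gene on another chromosome, 6 pairs differed by less than 0.5. Unrelated pairs were not compared, and 57.4% of genes off chromosome 13 lay within 0.5 of their own median. Across the 8 pairs, all on the same 2 arrays, Pearson's r was 0.82 and Spearman's rho 0.81, given as a description. PSME2P2 differed by 0.59 and PSME2, a proteasome activator subunit on chromosome 14, by 0.70. RPS12P23 differed by -1.22 and RPS12, a ribosomal protein gene on chromosome 6, by -1.57. PHF2P2 and PHF2 lay further apart, at -0.20 and -1.28. PTMAP5, the highest pseudogene, stood at 14.7 and 15.7, a difference of 0.97, and the row annotated jointly to PTMA, the prothymosin gene, and others differed by 0.82.

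Of 19 microRNA genes with a row of their own 3 reached the floor. MIR622 stood at 16.2 in the parental and 15.1 in the resistant line, a difference of -1.10. Its locus overlaps the keratin pseudogene KRT18P27, and KRT18 itself differed by -0.63. MIR3613, which lies within DLEU2, stood at 6.31 and 7.001. MIR548AN, at 12.01 and 12.3, is placed on chromosome X by the gene table although its row carries the chromosome 13 code, and it was left out of the order along the chromosome.

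Both well-known microRNA clusters of the chromosome were covered by rows with several symbols. The row annotated to MIR17HG, MIR17, MIR18A, MIR18B, MIR19A, MIR20A, MIR19B1 and MIR92A1 stood at 6.11 and 5.72, a difference of -0.39. That annotated to DLEU2, MIR15A and MIR16-1 stood at 6.99 and 6.19, a difference of -0.79. These rows read host transcripts or precursors, not the mature forms. The mature forms of both loci are printed from RefSeq (GRCh38.p14), with the seed, bases 2 to 8, in capitals to show which share it. The first 6 lie on the plus strand within chr13:91350618-91351382 and the last 2 on the minus strand within chr13:50049027-50049188.
miR-17-5p: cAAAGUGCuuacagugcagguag
miR-20a-5p: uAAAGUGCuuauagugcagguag
miR-18a-5p: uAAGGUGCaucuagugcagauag
miR-19a-3p: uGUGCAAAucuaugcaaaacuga
miR-19b-3p: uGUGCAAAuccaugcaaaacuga
miR-92a-3p: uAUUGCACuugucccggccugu
miR-15a-5p: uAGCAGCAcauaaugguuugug
miR-16-5p: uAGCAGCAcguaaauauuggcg

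miR-17-5p and miR-20a-5p share a seed, as do miR-19a-3p and miR-19b-3p, and miR-15a-5p and miR-16-5p. Over all 11 rows with several symbols at or above the floor the median was -0.81, with 5 lower and 1 at 0 or more. The row of ERCC5, an endonuclease of nucleotide excision repair, and its read-through transcript stood at 9.65 and 7.94, a difference of -1.71. The row of ALG11 and UTP14C, the former a mannosyltransferase, stood at 9.50 and 7.52, a difference of -1.98.

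The rows that the annotation does not list had a smaller shift. Of 1111, 172 reached the floor, with a median of -0.34, and 43 were lower and 4 higher. Off chromosome 13 the rows not listed had a median of -0.09, with 11.3% lower and 5.38% higher. By parental value the median was -0.28 over the 85 rows under 7 and -0.26 over the 32 rows from 7 to 8. It was -0.56 over the 25 rows from 8 to 10 and -0.86 over the 30 rows at 10 or more. Rows not listed on other chromosomes had -0.01 under 7 and -0.19 at 10 or more.

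The identifier numbers gave a second view of order. In numbers 1 to 437, and again in 438 to 902, the number and the gene's position ran in almost the same order (Spearman's rho of 0.999998 over 269 rows and 0.999995 over 306). The first run holds mostly plus strand genes and the second mostly minus strand genes. Unlisted rows at or above the floor had a median of -0.15 in the first run (39 rows) and -0.34 in the second (33 rows). The long run from 903 to 1717 held no listed row, and its 100 rows at or above the floor had a median of -0.57. Cut into 5 runs of 20 by number, the medians lay between -0.78 and -0.45, so the shift was present in each.

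Single unlisted rows had differences as large as those of the outermost genes. TC13000957 stood at 9.33 in the parental and 4.03, under the floor, in the resistant line, at least 11.6-fold lower. TC13000535, numbered between HMGB1 and TEX26-AS1, stood at 10.1 and 5.94, a difference of -4.16. Those 2 genes differed by -0.46 and -0.22, so the row stood apart from both. In the other direction TC13001298 stood at 6.13 and 9.64, a difference of 3.51. TC13000396, numbered between ING1 and ARHGEF7 in the distal block, stood at 6.75 and 9.57, a difference of 2.81. All 4 were chosen after their values were seen.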

How the data were processed

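RNA of 2 cultures, 1 array each, was compared; nothing says how the cultures were made. Per the submitters' processing notes, the authors used Affymetrix Expression Console. Its algorithm and version, and any normalization, annotation or genome build, were, in the sources used here, not given. Values deposited by the authors were taken as log2 and used as they stand. Some exceed 16, the ceiling of a 16-bit scanner, so a difference of 1 need not be exactly 2-fold in brightness.

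Chromosome 13 rows were named through the platform annotation and the NCBI gene table for GRCh38.p14: 414 by gene identifier, 146 by symbol, 22 by synonym and 1 as given. That table also set gene order, and no coordinate of it is given. For a gene with several rows the one with the higher mean was used. Folds against a value under the floor are bounds computed at the floor. In 32 chromosome 13 rows both values were identical. Python 3.11.15, pandas 2.3.3, numpy 2.4.6, SciPy 1.17.1 and statsmodels 0.14.6 were used, and the scripts were tested on simulated data. Alternatives covered scaling, floor, threshold, summary and blocks.

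Members and lists were chosen with earlier results of these data known. Named by rule were the 10 lowest and 10 highest genes, the protein-coding genes at 0 or more, up to 4 members per list by mean level, and LAMP1, SLC46A3, RFC3, RB1, KLF5, CDX2, IRS2 and ABCC4 (62 genes in all); a few items are not reported here. Other genes named were chosen after their values were seen.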

Additional observations from a re-analysis of the deposited data

How the results depend on the processing

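All results rest on 1 array per group. No paired analysis was possible because each group has 1 sample and the labels carry no replicate numbers. Of 57 alternative values 20 moved a summary (a median or spread by over 0.1, a count by over 1.5 times), 36 did not and 1 reversed one. The 4 rescalings moved none: the median stayed between -0.59 and -0.56 and the count of lower rows between 141 and 147. The rescalings were themselves slight, shifting the differences of all transcript cluster rows by a median between -0.019 and 0.024. They therefore say little about other processing. With no floor the median was -0.059, 213 single-symbol rows were at 0 or more (34 with the floor) and the spread of block medians over all genes was 0.26 (0.99 with it), since rows near 0 entered. With the floor at the 75th percentile the median was -1.10, with 89 lower, 4 higher and 10 at 0 or more, since fewer rows were counted. A 1.5-fold threshold gave 19 higher, and a 4-fold threshold 29 lower and 3 higher. The median was -1.09 over protein-coding genes, -0.34 over unlisted rows and -0.72 as a mean. The spread of block medians was 0.41 with 5 blocks, 1.34 with 20 and 0.65 by identifier number. Chosen after seeing the data, protein-coding genes without the last block gave a median of -1.16 and a spread of 0.81. Also added then, list members at the floor on both arrays gave -0.1146 for growth factor signalling (0.39 otherwise), since members that passed on the resistant array alone dropped out, -0.91 for transcription factors and -1.15 for junction and matrix genes. Where no construction is named, the cause was not tested.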
